A study of Mus musculus with 12 samples.

Results

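Broad H3K4me3 domains of C2C12 myoblasts are described here: all peaks of 6000 bp or more in the authors' day 0 H3K4me3 list, on chromosomes 1 to 19 and X. The rule found 472 domains among 19206 day 0 peaks (2.46%), and together they spanned 3.69 Mb, which was 8.99% of all bases under day 0 H3K4me3 peaks. C2C12 is an established line of mouse myoblasts, which leave the cell cycle and fuse into multinucleated myotubes when serum is lowered. CUT&RUN, in which an antibody guides a nuclease to cut chromatin around its target and the freed fragments are sequenced, was run with antibodies to H3K4me3 and to MBD2 on day 0 cells, on cells at day 1 of differentiation in 2% horse serum, and on 2 fractions of day 5 cultures, myotubes (D5MT) and reserve cells (D5RC). Myotubes and reserve cells were parted by mild trypsin treatment, so each fraction may hold some of the other. The labels name no genetic change or added agent in any of the 4 groups, and there was 1 library per antibody and group and no replicate, so no difference between groups could be tested and the 95% intervals given (exact Clopper-Pearson) cover counting error only. The read depth of the libraries is unknown from the files.

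H3K4me3 is a mark of active and poised promoters, written by the SET1 and MLL methyltransferases, which are brought to unmethylated CpG-rich DNA by CXXC-domain proteins. At most active genes it forms a short block around the transcription start. At some genes it runs far into the gene body, and such broad domains are known for marking genes that define a cell's identity as well as genes transcribed at steady levels. MBD2 binds methylated CpG and carries the NuRD complex, which slides nucleosomes and removes histone acetylation, and part of it is also found at active, unmethylated promoters.

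Promoter sequence is shown for 4 domains whose values recur below, 3 of them picked after their values were seen for contrasting later fates: Sema7a, which was shorter in both day 5 fractions, Irs1, which was of like length in all 4 lists, and Itga7, which was longest in myotubes. The other, Srgap2, held MBD2 in all 4 libraries, as did a domain without any annotated start, shown around its MBD2 summit. Each window is 250 bases of the reference genome (mm10), written 5′ to 3′ on the gene's strand and ending at the base before the gene start, with every CG dinucleotide in capitals. The windows lie at chr9:57939862-57940111 (plus strand) for Sema7a, chr1:82291417-82291666 (minus) for Irs1, chr10:128933568-128933817 (plus) for Itga7, chr1:131527353-131527602 (minus) for Srgap2, and chr6:51173130-51173379 (plus) for the domain without a start. None of them overlapped an annotated untranslated region.
Sema7a: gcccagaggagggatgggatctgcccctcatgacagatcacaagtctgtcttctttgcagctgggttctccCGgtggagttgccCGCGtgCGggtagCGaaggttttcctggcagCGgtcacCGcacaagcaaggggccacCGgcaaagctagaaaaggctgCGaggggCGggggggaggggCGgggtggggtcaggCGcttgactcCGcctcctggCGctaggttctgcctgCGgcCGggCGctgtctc
Irs1: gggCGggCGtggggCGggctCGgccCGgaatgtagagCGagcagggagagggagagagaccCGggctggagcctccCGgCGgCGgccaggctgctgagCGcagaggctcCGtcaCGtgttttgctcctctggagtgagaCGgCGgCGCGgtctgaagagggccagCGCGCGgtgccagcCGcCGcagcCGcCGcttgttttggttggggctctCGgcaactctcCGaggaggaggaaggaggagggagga
Itga7: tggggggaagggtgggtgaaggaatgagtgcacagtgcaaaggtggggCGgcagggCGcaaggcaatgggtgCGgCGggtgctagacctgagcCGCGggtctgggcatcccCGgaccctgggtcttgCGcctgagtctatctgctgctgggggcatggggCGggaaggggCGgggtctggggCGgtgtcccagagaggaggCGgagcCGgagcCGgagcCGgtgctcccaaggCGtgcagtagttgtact
Srgap2: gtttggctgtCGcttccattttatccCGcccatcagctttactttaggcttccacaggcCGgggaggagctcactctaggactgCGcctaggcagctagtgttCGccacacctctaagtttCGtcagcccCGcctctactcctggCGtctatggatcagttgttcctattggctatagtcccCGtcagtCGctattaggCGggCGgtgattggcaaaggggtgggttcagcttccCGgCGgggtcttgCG
chromosome 6 domain without a start: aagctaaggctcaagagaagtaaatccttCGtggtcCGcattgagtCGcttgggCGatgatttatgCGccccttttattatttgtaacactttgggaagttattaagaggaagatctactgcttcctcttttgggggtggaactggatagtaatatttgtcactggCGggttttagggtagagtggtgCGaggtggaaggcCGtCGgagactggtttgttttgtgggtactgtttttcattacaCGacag
The number of CG dinucleotides was 17 for Sema7a, 26 for Irs1, 16 for Itga7, 15 for Srgap2 and 10 around the MBD2 summit. Over the 484 protein-coding starts inside broad domains the median was 16, beside 19 for the 4393 starts under day 0 peaks of 3000 bp to under 6000 bp, 14 for the 6316 starts under shorter peaks and 3 for the 10562 starts without a day 0 peak. Starts of broad domains were therefore not the richest in CG of the marked starts.

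The label of the cells was checked against markers. At day 0 a peak lay over the start of 8 of 8 myoblast markers, and 3 of them (Pax7, Myf5 and Itga7) were inside a broad domain. None of 6 myotube markers, none of 4 blood markers and none of 5 fibroblast markers had a peak over the start, while 3 of 5 neuronal, 1 of 3 endothelial, 1 of 4 adipocyte and 1 of 4 cartilage and bone markers had one. No marker outside the myoblast list had its gene 5′ end in a broad domain, although 2 of them, the fibroblast marker Col1a2 and the bone marker Runx2, reached one through another transcript start.

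Most domains were only moderately longer than the limit. The median was 7009 bp, 234 domains were under 7000 bp, 103 were 7000 bp to under 8000 bp, 89 were 8000 bp to under 10000 bp, 38 were 10000 bp to under 15000 bp, and 8 were longer. Just inside the limit stood Polr2l/Tspan4 (6000 bp), Eif3a (6004 bp) and Vgll4 (6004 bp), and just outside it Irx2 (5998 bp), Rps12 (5997 bp) and Eef1a1 (5996 bp). Chromosome 11 held 49 domains, chromosome 2 held 39 and chromosome 1 held 32. The median fold enrichment that the authors' peak caller gave was 68.0 in the domains and 29.1 over the whole day 0 list.

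**Figure D1:**
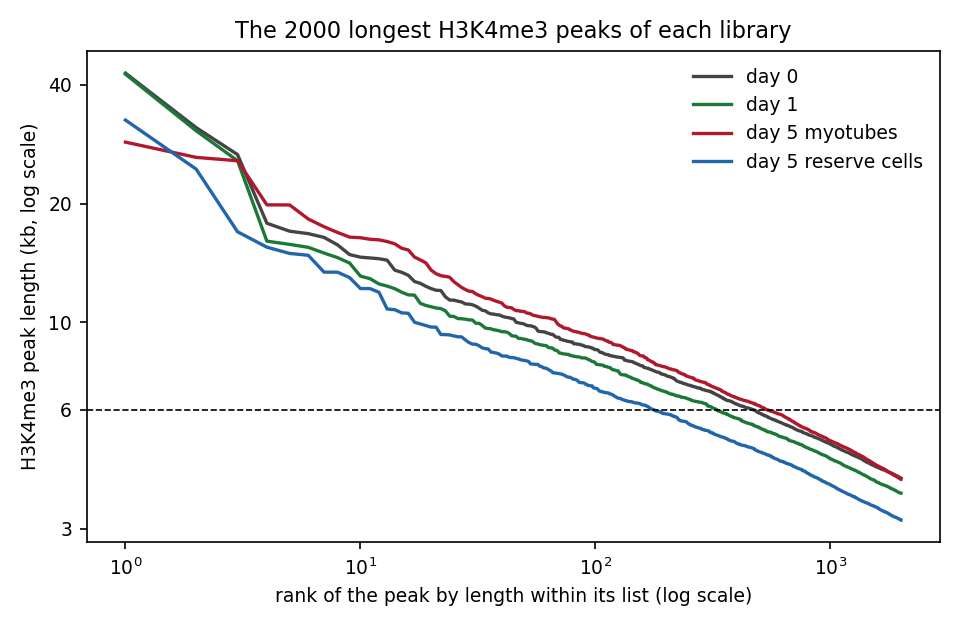
Length of the 2000 longest H3K4me3 peaks of each library (kb, log scale) against their rank by length within the list (log scale); the dashed line marks 6 kb. The lines cross it at rank 472 for day 0, 328 for day 1, 540 for myotubes and 177 for reserve cells.

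Of the 10 longest domains, 2 covered Hox gene clusters. First was a domain of 42837 bp over the HoxC cluster (chr15:102944697-102987533), with the starts of Hoxc11, Hoxc10 and Hoxc9, homeodomain factors that set positional identity. The gene 5′ end of Hoxc5 also lay inside, but no Hoxc5 transcript start of the annotation used did. The longest peak overlapping the domain measured 42577 bp at day 1, 26199 bp in the myotubes and 32570 bp in the reserve cells while 94.7% and 97.2% of the domain's bases were covered at day 5. The day 5 lists thus held it in shorter pieces. The HoxA cluster carried the second, 31164 bp with Hoxa3, Hoxa7, Hoxa9 and Hoxa10 (chr6:52210179-52241342), whose longest peak was 30592 bp at day 1, 19859 bp in the myotubes and 16972 bp in the reserve cells. Hoxa11 lay in a separate domain of 11390 bp only 1751 bp away, and Hoxc6 in one of 6718 bp 9582 bp from the HoxC domain. After these came a domain of 26630 bp that held no annotated start (chr15:85662785-85689414), 949 bp from the domain of the noncoding gene Lncppara.

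Next came Neat1, the long noncoding RNA that builds paraspeckles, with 17838 bp at day 0, 15499 bp at day 1, 28634 bp in the myotubes and 12990 bp in the reserve cells. It was the longest peak of the whole myotube list. Its neighbour Malat1, the nuclear speckle RNA, had 11138, 11726, 11453 and 9911 bp in the same order (a domain chosen after its values were seen). Smad7, the inhibitory SMAD that dampens TGF-beta signalling, measured 17027, 8063, 7813 and 13405 bp. Plec, encoding the cytoskeletal linker plectin, measured 16788, 16066, 16032 and 14796 bp, and Lmna, encoding lamins A and C, measured 16424, 10701, 16191 and 9315 bp. Both were reached by internal transcript starts and not by the gene's 5′ end. The remaining members of the 10 longest were Pax7 (15720 bp) and 2 predicted genes, Gm47586 (14856 bp) and AL805899.1 (14637 bp).

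A gene's 5′ end lay inside 407 of the 472 domains (86.2%, interval 82.8 to 89.2%), where 54.9% of all day 0 peaks and 88.9% of the day 0 peaks of 3000 bp to under 6000 bp held one. Protein-coding starts lay in 371 domains (78.6%, interval 74.6 to 82.2%), against 51.2% of all day 0 peaks and 85.3% of peaks of 3000 bp to under 6000 bp. Broad domains thus held protein-coding starts less often than the peaks just below them in length, by counts whose intervals did not overlap. In 45 domains only another transcript start was inside, and 20 domains (4.24%) held no annotated start at all, beside 3.48% of peaks of 3000 bp to under 6000 bp and 50.1% of shorter peaks. Exactly 1 protein-coding start lay in 285 domains, and 2 or more lay in 86 (18.2%, against 17.6% of peaks of 3000 bp to under 6000 bp).

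In all, 755 annotated genes started inside the domains, of which 484 were protein-coding, 51 antisense RNAs, 44 small nucleolar RNAs, 42 long intergenic RNAs and 41 microRNA genes. MicroRNA genes lay in 32 domains (these and the gene families that follow were chosen after their values were seen). Mir125b-1 started in a domain of 12181 bp that measured 9578 bp at day 1, 7363 bp in the myotubes and 8146 bp in the reserve cells. Mir21a lay in one of 8528 bp, followed by 7267, 8139 and 6672 bp. Mir199a-2 and Mir214 shared the domain of their host Dnm3os (7461, 7092, 4830 and 6344 bp), and Mir196a-2 and Mir196b lay in the HoxC and HoxA domains. Small nucleolar RNA genes lay in 15 domains, and ribosomal protein genes in 10. Of these 10, 1, 3 and 0 still overlapped a peak of 6000 bp or more at day 1, in the myotubes and in the reserve cells. Over all domains it was 61.7%, 51.1% and 35.6%. Most of their bases were still covered, with medians of 81.6%, 85.1% and 69.1%, beside 92.9%, 88.3% and 81.4% over all domains. In each later list 0 of the 10 were under 50% covered. The Hist1 clusters on chromosome 13 held 8 domains of 6201 to 9481 bp, all 8 with an MBD2 peak at day 0, beside 59.3% of all 472 domains. How reads that match several near-identical copies were treated is not given in the sources used, so lengths at histone genes are uncertain.

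Among 285 domains with a single protein-coding start, the mark reached a median of 1587 bp upstream and 5386 bp downstream of it, and 256 domains (89.8%) reached further downstream. The same asymmetry was present in 94.3% of peaks of 3000 bp to under 6000 bp, so direction did not set the broad ones apart. The summit, the point of highest signal, lay a median of 1204 bp downstream of the start, beside 773 bp in peaks of 3000 bp to under 6000 bp and 374 bp in shorter ones. In 245 domains (86.0%) the mark extended 4 kb or more into the gene and in 25 (8.77%) 4 kb or more upstream. In peaks of 3000 bp to under 6000 bp the shares were 8.49% and 0.035%, a contrast that the length limit itself favours.

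Which genes carried a broad domain was counted over 20 gene lists, each against the genes of that list that had any day 0 peak over the start. The background was 4.32%: of 11193 protein-coding genes with a day 0 peak over the start, 484 lay in a broad domain, which was 2.22% of all 21755 protein-coding genes. Highest were homeobox and T-box factors, with 13 of 26 marked genes (50%, interval 29.9 to 70.1%), but they shared 9 domains because Hox genes lie side by side. Housekeeping genes followed with 10 of 20 (50%, interval 27.2 to 72.8%), among them Actb, Gapdh, Tubb5 and Rpl13a. Genes of the actin cytoskeleton and targets of SRF, the factor that reads actin dynamics, reached 12 of 28 (42.9%, interval 24.5 to 62.8%). Immediate early genes, which growth signals switch on within minutes, reached 8 of 22 (36.4%, interval 17.2 to 59.3%), and cell cycle inhibitors 4 of 11 (36.4%, interval 10.9 to 69.2%).

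Myogenic regulators reached 4 of 14 (28.6%, interval 8.39 to 58.1%), TGF-beta and BMP genes 8 of 28 (28.6%), extracellular matrix genes 7 of 26 (26.9%), satellite cell and myoblast surface genes 4 of 17 (23.5%) and growth factor signalling genes 5 of 22 (22.7%). Lower shares were found for sarcomere genes (2 of 14, 14.3%), chromatin regulators (4 of 34, 11.8%), Wnt genes (2 of 23, 8.70%), Notch and Hes genes (1 of 12, 8.33%) and cell cycle genes (2 of 30, 6.67%), whose intervals reached below 4.32%. No marked gene of the neuronal (0 of 9), imprinted (0 of 9), adipocyte (0 of 5), bone and cartilage (0 of 3) or blood and endothelial (0 of 1) lists lay in a broad domain. With so few marked members, the upper bounds of these zeros ran from 33.6% to 97.5%.

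**Figure D2:**
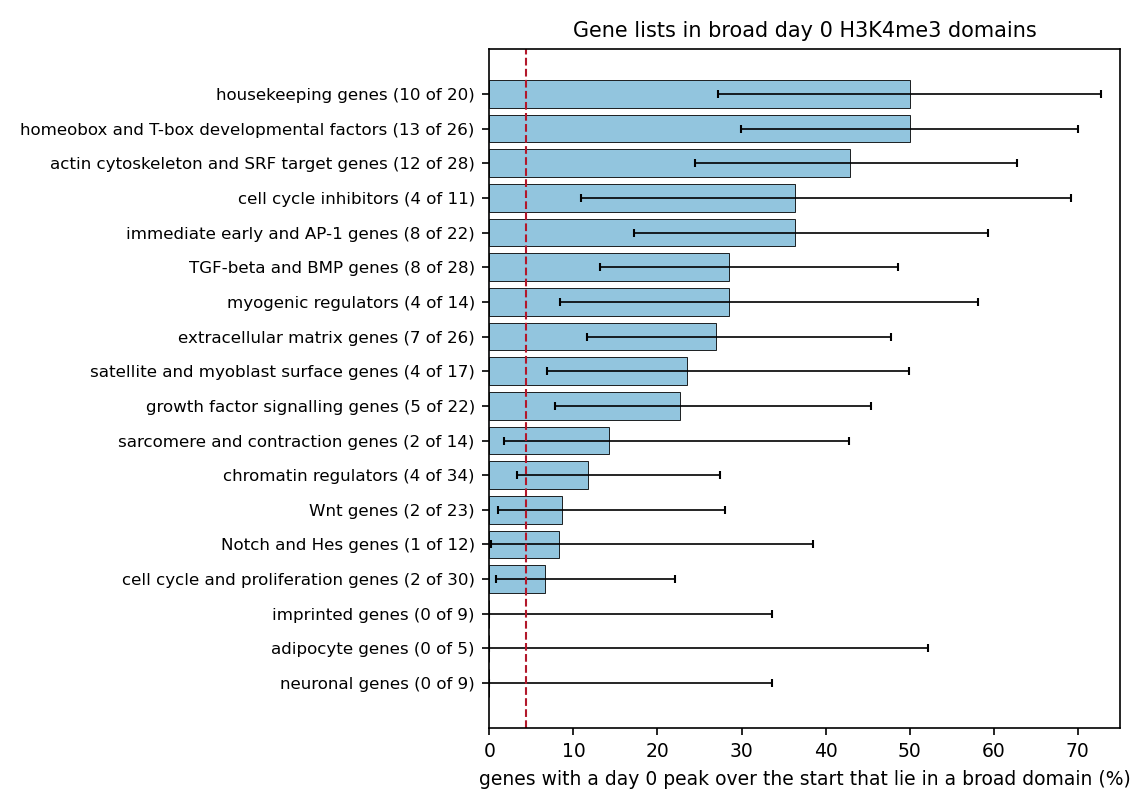
Percent of marked genes of each list that lay in a broad day 0 domain (bars), with exact 95% intervals for counting error (lines), for lists with at least 5 marked genes; numbers in brackets are genes in a domain of genes with a day 0 peak over the start. The dashed line is the 4.32% of all marked protein-coding genes, which the bars of neuronal, adipocyte and imprinted genes do not reach.

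Among myogenic regulators, Pax7, the paired-box factor of muscle stem cells, had the longest domain (chr4:139821148-139836867). The peak over its start measured 15720 bp at day 0, 15768 bp at day 1, 4326 bp in the myotubes and 15513 bp in the reserve cells. Myotubes alone stood apart, with 4 separate peaks that covered 62.6% of the domain. Myf5, an early myogenic bHLH factor, measured 8398, 8129, 3578 and 5605 bp in the same order, and was also shortest in myotubes. Mef2d, a MADS-box partner of the myogenic bHLH factors, was longest there, with 9508, 7792, 14401 and 9319 bp. Eya1, a transcriptional coactivator, measured 6219, 6277, 4378 and 4351 bp. Myod1, the factor that commits cells to muscle, had a peak of 4508 bp at day 0 and of 3846, 5282 and 3943 bp later, and so was no member. Myog, which drives terminal differentiation, had a peak over its start only in myotubes (4706 bp).

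Of the list of satellite cell and myoblast surface genes, Itga7, Vegfa, Itgb1 and Megf10 lay in a domain, although Vegfa encodes a growth factor. Sdc4, of the same list, was reached by another transcript start and was not counted. Itga7, the laminin-binding integrin of skeletal muscle, measured 6653 bp at day 0, 8519 bp at day 1, 10270 bp in the myotubes and 6677 bp in the reserve cells. A neighbouring day 0 peak upstream of it was joined to it in the day 1 and myotube lists. Vegfa, the angiogenic growth factor, measured 6976, 5970, 7133 and 6311 bp, and Itgb1, the integrin beta chain that pairs with the Itga7 product, 6539, 4534, 4976 and 4159 bp. Megf10, a receptor of satellite cells, measured 6169, 5531, 6524 and 4760 bp. Sarcomere genes in a domain were Myom1, which encodes an M-band protein and shared its domain with Myl12a and Myl12b (6988, 6034, 11014 and 5230 bp), and Jph2, which ties the T-tubule to the sarcoplasmic reticulum (6691, 6943, 9126 and 6634 bp). Both were longest in myotubes.

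Of 12 actin and SRF list members, all 12 held a day 0 MBD2 peak, as did 59.3% of all 472 domains. These 12 domains were longer (median 8417.5 bp against 7009 bp), and 77.0% of all domains of 8000 bp or more held MBD2. Of list members reached only by another transcript start, Lmna held MBD2 and Amotl2 did not. Vim, the mesenchymal intermediate filament, measured 9982, 9238, 5113 and 6963 bp at day 0, day 1, in the myotubes and in the reserve cells. Tpm1, the tropomyosin that coats actin filaments, measured 9808, 9829, 9861 and 9296 bp. Zyx, a focal adhesion protein, measured 9168, 8958, 7653 and 7346 bp. Cnn2, a calponin, measured 9052, 9254, 9670 and 4383 bp, with 87.3% of its domain still covered in the reserve cells. Actb, cytoplasmic beta-actin, measured 8794, 8121, 6370 and 6303 bp, and Ccn1, a matricellular SRF and YAP target, 8682, 8184, 6874 and 7278 bp. Across these 12 genes the median cover was 94.4% at day 1, 92.5% in the myotubes and 85.6% in the reserve cells, beside 92.9%, 88.3% and 81.4% over all 472 domains.

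Immediate early genes were well covered in all later lists. All 8 had MBD2 at day 0, beside 59.3% of all domains, and their median cover was 93.8% at day 1, 94.2% in the myotubes and 90.4% in the reserve cells. Dusp1, of the same list but reached by another transcript start, held no MBD2. Junb measured 8985, 8727, 9646 and 8021 bp and Fosl2 8228, 8207, 10550 and 8143 bp, both AP-1 subunits. Jun (6616, 6068, 6667 and 5867 bp), the partner of both, and Klf6, a Krüppel-like factor (6545, 5336, 6248 and 6037 bp), differed by under 2 kb between lists. Ier2 measured 7379, 6990, 6555 and 6584 bp. Egr1, a zinc finger factor of the serum response, had 7012, 6854, 4028 and 5720 bp, with 57.4% of its bases covered in myotubes, the lowest of the 8.

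Cell cycle genes gave only 2 members. Ccnd1, cyclin D1, the partner of CDK4 and CDK6 in G1, had a domain of 8282 bp (chr7:144935374-144943655), followed by 5988 bp at day 1, 2114 bp in the myotubes and 2978 bp in the reserve cells. Its cover was 72.3% at day 1, 25.5% in the myotubes and 57.6% in the reserve cells, and no myotube peak lay over the start itself. Cdk6 measured 6219, 5814, 4934 and 5071 bp. Among inhibitors, Cdkn1b, which encodes the CDK inhibitor p27, had 14502, 14593, 4763 and 5411 bp, while Btg1, an antiproliferative factor, had 8198, 8247, 7399 and 6671 bp. The Cdkn1b domain was split over 4 peaks in each day 5 list, which covered 60.9% of it in the myotubes and 91.0% in the reserve cells. Cdkn2d measured 6148, 5565, 5216 and 5177 bp and Cdkn2c 6053, 5749, 5850 and 5947 bp. Both encode INK4 proteins that bind CDK4 and CDK6.

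Among the 7 matrix genes counted, Col6a3, a chain of collagen VI, measured 6713 bp at day 0, 4258 bp at day 1, 1111 bp in the myotubes and 2416 bp in the reserve cells. Fn1, fibronectin, measured 7040, 6674, 5264 and 5748 bp. Serpinh1, the collagen chaperone, measured 6227, 5596, 4363 and 5731 bp, and Col5a1 6081, 5552, 4936 and 6178 bp. Thbs1, thrombospondin, measured 6647, 6742, 6146 and 7446 bp, and Loxl1, a collagen and elastin cross-linker, 6314, 5639, 6398 and 5411 bp. Col1a2, a chain of collagen I, was reached by another transcript start. It had 7594, 6842, 1122 and 7425 bp, so that 14.8% of it was covered in the myotubes and 97.8% in the reserve cells. Its partner gene Col1a1 was no member, with a peak over the start at day 1 (3714 bp) and in reserve cells (3435 bp) and none in the other lists.

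In the TGF-beta and BMP list, Inhba, the activin A subunit, measured 10300, 10192, 4324 and 9729 bp, and Id2, an inhibitor of bHLH factors, 9362, 9005, 4646 and 8158 bp. For both, the longest myotube peak was the shortest of the 4, but cover differed. In myotubes it was 59.4% for Inhba and 86.6% for Id2, and in reserve cells 94.5% and 89.4%. Id3, a second such inhibitor, measured 8676, 5788, 3410 and 5329 bp. Acvr1, a BMP type I receptor, measured 7486, 5133, 4387 and 4744 bp, and Skil, a SMAD corepressor, 7459, 7292, 7384 and 7035 bp. Growth factor signalling genes were led by Irs1, the adaptor of insulin and IGF receptors, with 10733, 10957, 10251 and 10814 bp, all 4 within 1 kb of each other. Spry2, a feedback inhibitor of receptor tyrosine kinases, measured 8826, 8134, 6698 and 7826 bp. The MAP kinase phosphatase genes Dusp4 (8225, 7591, 6202 and 5797 bp) and Dusp6 (7533, 7395, 5820 and 6249 bp) were shorter in both day 5 lists, and Igfbp5, an IGF binding protein, measured 6337, 6303, 6457 and 5007 bp.

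Chromatin regulators in a domain were Setd1b, itself a catalytic subunit of an H3K4 methyltransferase complex (12065, 12362, 13289 and 12181 bp), Brd2, a bromodomain reader of acetylated histones (10573, 9229, 8787 and 8220 bp), Kmt2d, an enhancer H3K4 methyltransferase (6444, 5993, 6348 and 5969 bp), and Chd3, a NuRD remodeller (6353, 6442, 6844 and 5862 bp). Mbd2 itself had a peak of 3650 bp at day 0 and of 3277, 2858 and 2982 bp later, below the limit. Hes1, the Notch effector, measured 8828, 8179, 8379 and 8214 bp. Fzd7, a Wnt receptor, measured 7946, 6455, 8487 and 5912 bp, and Tcf7l2, a nuclear effector of Wnt, 7545, 7218, 4821 and 4924 bp. Housekeeping members had a median cover of 79.5% at day 1, 85.8% in the myotubes and 69.1% in the reserve cells. Gapdh (6755, 6244, 7573 and 6366 bp) was longest in myotubes, whereas Rpl13a (8597, 3864, 4050 and 3523 bp) and Tubb5 (9388, 5204, 3320 and 4007 bp) were longest at day 0.

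**Figure D3:**
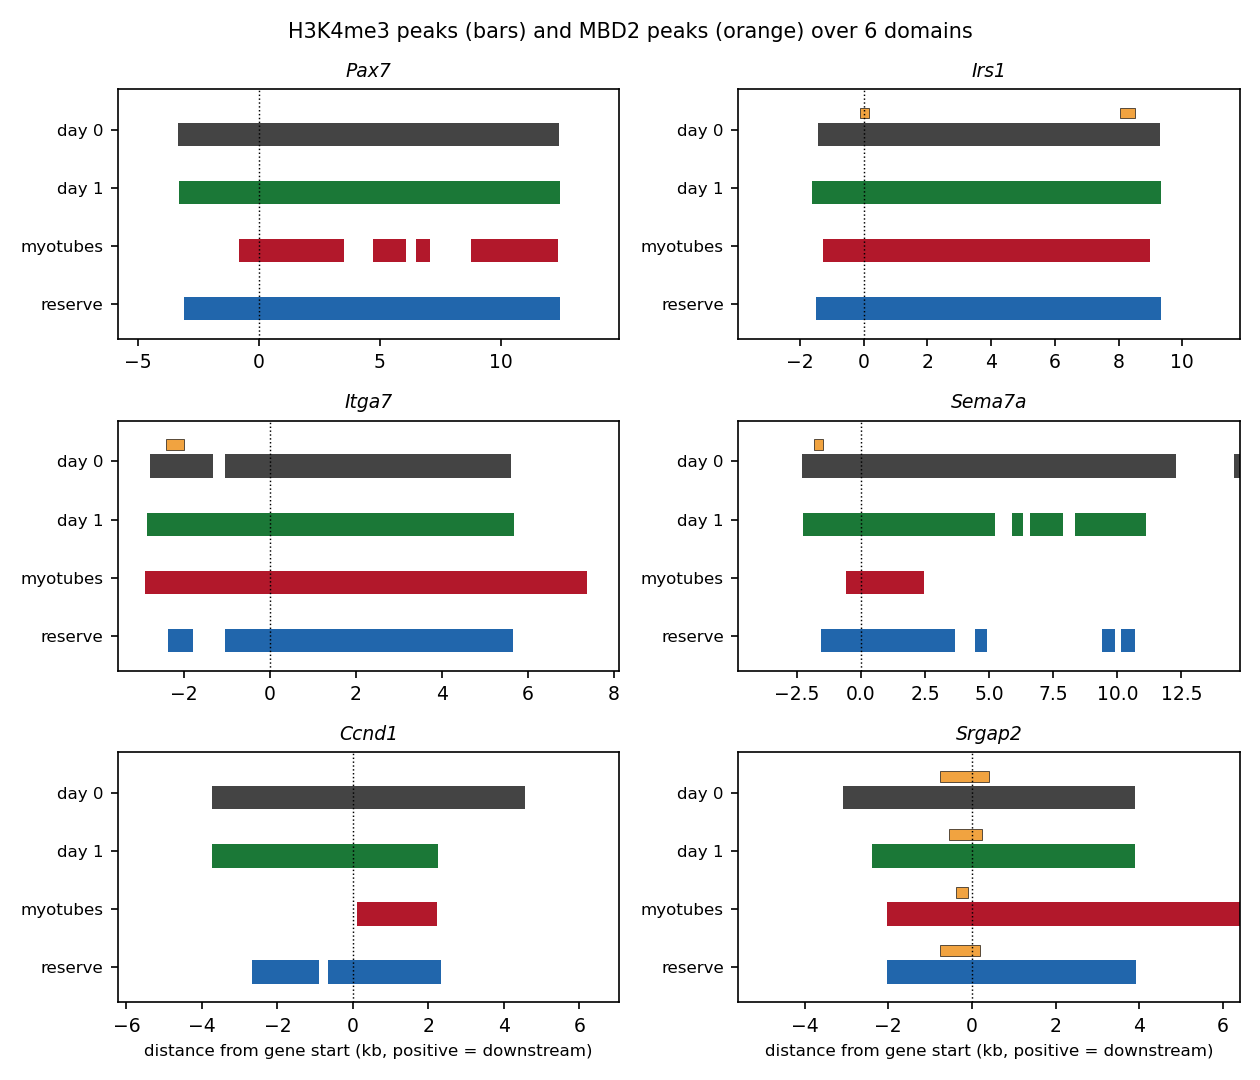
H3K4me3 peaks (bars: grey day 0, green day 1, red day 5 myotubes, blue day 5 reserve cells) and MBD2 peaks (orange) over 6 domains, by distance from the gene start in kb (dotted line; positive is downstream on the gene's strand; bars at a panel's edge run on beyond it). Pax7 is broken into 4 pieces in myotubes alone, Sema7a shrinks to 1 short peak there, Irs1 keeps its length in all 4 rows, and Srgap2 carries MBD2 in all 4.

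Over all members, the later lists covered most domain bases. The median share of a domain covered by peaks was 92.9% at day 1, 88.3% in the myotubes and 81.4% in the reserve cells, and 90.2%, 82.3% and 79.0% of all domain bases were covered. Under 50% of bases were covered in 3 domains at day 1 (0.636%, interval 0.131 to 1.85%), in 37 in myotubes (7.84%, interval 5.58 to 10.6%) and in 27 in reserve cells (5.72%, interval 3.80 to 8.21%). With a limit of 80% of bases the order of the day 5 fractions turned (34.3% of domains in the myotubes and 47.2% in the reserve cells). At 50%, the share over all day 0 peaks was 21.3%, 22.4% and 32.8%, and over peaks of 3000 bp to under 6000 bp it was 0.568%, 5.18% and 4.42%. Low cover was thus rarer in the domains than in the whole list, while the intervals of the domains and of the peaks next to them in length overlapped at all 3 later states. The H3K4me3 lists differed in size (19206, 17653, 26024 and 15910 peaks) and in the lowest local background that their pileup and fold imply (1.47, 1.25, 1.22 and 1.08 fragments at day 0, day 1, in the myotubes and in the reserve cells). With lists cut to equal numbers of their strongest peaks, median cover was 92.7%, 87.1% and 81.4% in the later states and 1.06%, 9.53% and 5.72% of domains were under 50%. The part of the background in the later cover was not tested. Only 1 domain, at the predicted gene Gm42476, had no peak at all in the myotubes and in the reserve cells, after 6308 bp at day 0 and 5223 bp at day 1. In these bulk libraries, fewer cells with the mark and a weaker mark per cell cannot be told apart, and neither can a change of state from a difference between single libraries.

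**Figure D4:**
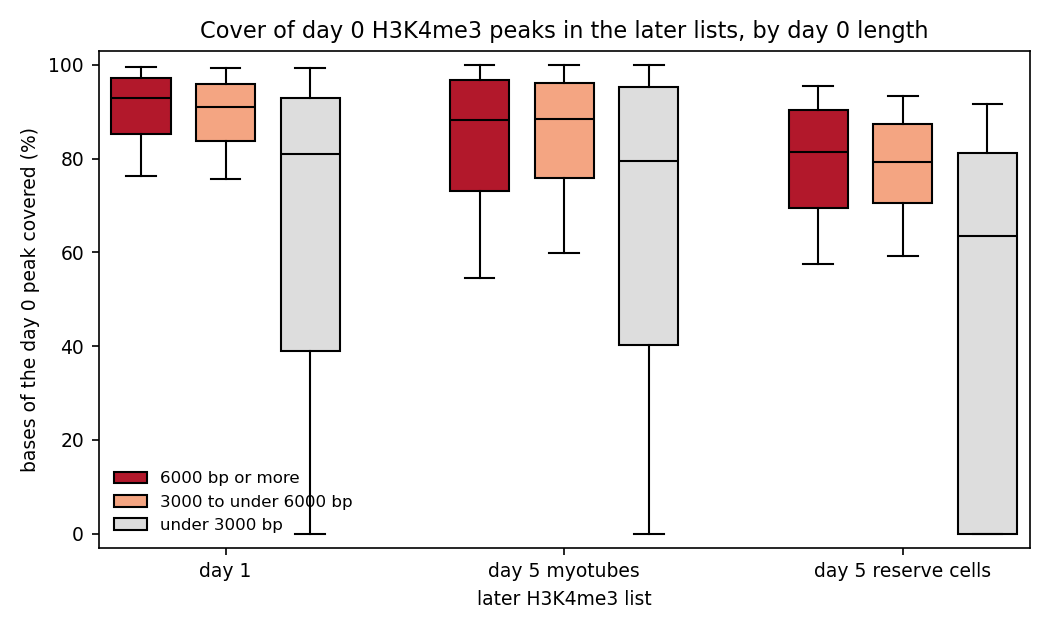
Share of each day 0 peak's bases covered in the later H3K4me3 lists (percent), by day 0 length class (472, 4226 and 14508 peaks); boxes span the quartiles with the median as a line, and whiskers reach the 10th and 90th percentiles. Domains of 6000 bp or more and peaks of 3000 bp to under 6000 bp overlap almost wholly, with medians of 92.9% and 90.9% at day 1, 88.3% and 88.4% in the myotubes and 81.4% and 79.4% in the reserve cells.

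Single later peaks were shorter than the cover alone would show. A peak of 6000 bp or more still overlapped 291 domains at day 1 (61.7%, interval 57.1 to 66.1%), 241 in myotubes (51.1%, interval 46.4 to 55.7%) and 168 in reserve cells (35.6%, interval 31.3 to 40.1%), against 1.84%, 3.12% and 0.942% of all day 0 peaks. Since the members were chosen by day 0 length, these are descriptions. The order of the day 5 fractions depended on the measure: counting instead the domains that overlapped one of the 472 longest peaks of the later list gave 74.4% at day 1, 45.8% in the myotubes and 63.6% in the reserve cells. The limits at that rank were 5491 bp at day 1, 6234 bp in the myotubes and 4794 bp in the reserve cells, shortest for reserve cells. A domain was split over 2 or more peaks in 118 cases at day 1 (25%), 150 in the myotubes (31.8%) and 186 in the reserve cells (39.4%). Over all day 0 peaks the shares were 2.541%, 3.291% and 3.702%. Over peaks of 3000 bp to under 6000 bp they were 5.04%, 6.697% and 7.903%. Longer regions can overlap more peaks, so splitting cannot be called particular to the domains. A longer peak than at day 0 overlapped 85 domains at day 1 (18%), 115 in the myotubes (24.4%) and 22 in the reserve cells (4.66%), near or below the 19.2%, 29.8% and 6.12% of all day 0 peaks.

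Counted the other way, the broad peaks of reserve cells and day 1 were nearly a subset of those of day 0. Of 177 peaks of 6000 bp or more in reserve cells, 169 (95.5%) overlapped a broad day 0 domain, and of 328 at day 1, 291 did (88.7%). Of 540 in myotubes, 241 did (44.6%), and the median share of such a myotube peak that day 0 peaks covered was 76.8%.

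By the set of later lists in which they were still broad, 138 domains (29.2%) were broad in all 4 groups, 59 at day 1 and in myotubes, 27 at day 1 and in reserve cells, 67 at day 1 alone, 42 in myotubes alone, 2 in myotubes and reserve cells (Vegfa and Klf6), 1 in reserve cells alone (Col5a1) and 136 (28.8%) in no later list. The 138 persistent domains were longer at day 0 (median 8191 bp) than the 136 broad in no later list (6446.5 bp), which the limit itself favours. Pax7, Inhba, Vim, Id2, Flna and Col1a2 were among the 27 broad at day 1 and in reserve cells but not in myotubes. Sema7a, Cdkn1b, Shox2, Dlx2, Myf5 and Cd44 were among the 67 broad at day 1 alone (in both groups the examples were chosen after their values were seen).

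Among domains with a protein-coding gene start, those with least cover at day 1 were Ltbp2, a latent TGF-beta binding protein (10459 bp, covered 41.3% at day 1, 34.6% in the myotubes and 39.2% in the reserve cells), and Ppp1cc, a catalytic subunit of protein phosphatase 1 (7055 bp, covered 49.4%, 40.3% and 40.6%). Together with a domain without a start (chr1:135844060-135852557, covered 32.3%, 31.5% and 34.6%) they were the 3 under 50% in every later list. Kansl2 (9412 bp, covered 52.9%, 64.5% and 36.0%), Cyb5d2/Zzef1 (6514 bp, covered 54.7%, 46.3% and 43.3%), Apbb2 (6388 bp, covered 60.9%, 57.0% and 60.0%) and Clcf1, a cytokine of the IL-6 family (10873 bp, covered 61.1%, 36.5% and 45.1%), followed.

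In myotubes the least covered domains with a protein-coding start were Col6a3 (16.6%), Sema7a (21.0%), Ereg (21.9%), Ccnd1 (25.5%), Tk1/Afmid (32.0%) and Lurap1l (32.2%). Sema7a, a membrane-anchored semaphorin, had one of the longest domains (14564 bp), and its longest peak was 7499 bp at day 1, 3058 bp in the myotubes and 5206 bp in the reserve cells. Ereg, the EGF family ligand epiregulin, measured 6087, 4769, 1334 and 4168 bp. Tk1, the thymidine kinase of S phase, shared its domain with Afmid and measured 6752, 3144, 858 and 2544 bp. In reserve cells, again among domains with a protein-coding gene start, the least covered were Kansl2 (36.0%), Hmga1 (36.4%), Ltbp2 (39.2%), Ppp1cc (40.6%), Col6a3 (42.0%) and Dusp10 (42.2%). Hmga1, an AT-hook chromatin protein of proliferating cells, measured 7379, 6975, 2882 and 2719 bp. The domain of Dusp10, a phosphatase of JNK and p38, measured 10379 bp at day 0, 10226 bp at day 1, 10284 bp in the myotubes and 3986 bp in the reserve cells, where alone it was short. The protein-coding gene 5′ end inside it was that of the predicted gene 1700056E22Rik, and Dusp10 was reached by another transcript start.

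Between the day 5 fractions, cover was higher in myotubes in 311 domains (65.9%), higher in reserve cells in 158 (33.5%) and equal in 3. This tilt was not particular to the domains: over all 19206 day 0 peaks the median cover was 82.6% in the myotubes and 70.5% in the reserve cells. The myotube list was also the larger (26024 against 15910 peaks). The counts of this paragraph are not given here for all day 0 peaks. It was under 50% in both for 17 domains, in myotubes alone for 20 and in reserve cells alone for 10. A gap of 30 points or more in favour of reserve cells was found in 13 domains, among them Pax7, Cdkn1b, Inhba, Ccnd1, Emp1, Col1a2, Ccn4, Ptgs2 and Ereg. Ptgs2, the inducible prostaglandin synthase, was covered 32.5% in the myotubes and 68.4% in the reserve cells, and Ccn4, a matricellular Wnt target, 63.6% and 98.0%. A gap of that size in favour of myotubes was found in 21 domains, among them Dusp10, Gse1, Tuba1b, Itgb1, Nptn, Cavin1, Msln and Abr (all domains named for such gaps were chosen after their values were seen). Gse1 was covered 100% in the myotubes and 56.4% in the reserve cells, and Tuba1b, an alpha-tubulin, 99.2% and 63.3%. Domains with the reserve cell gap had a median of 1.31 CpG per 100 bp and those with the myotube gap 2.44, beside 2.95 over all domains.

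**Figure D5:**
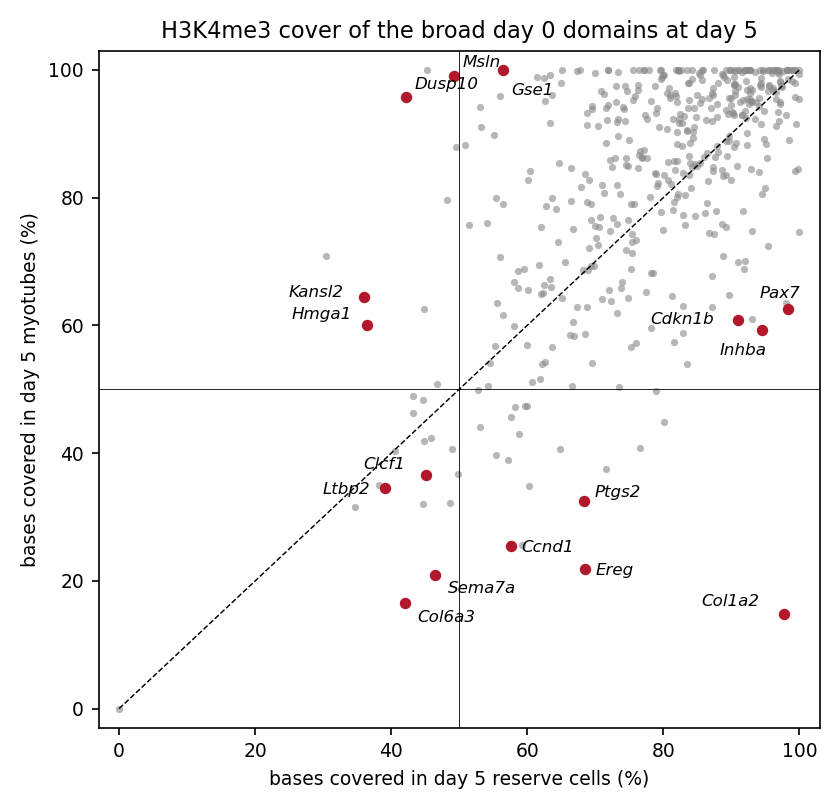
Percent of each broad day 0 domain's bases covered by H3K4me3 peaks in day 5 myotubes (vertical) against day 5 reserve cells (horizontal), 1 point per domain (472), with the diagonal dashed, thin lines at 50% and the named domains in red. Most points lie in the upper right, Col1a2 stands alone at the lower right (14.8% and 97.8%), and Dusp10 at the upper left (95.8% and 42.2%).

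Among domains with a protein-coding gene start, the ratio to the day 0 length was highest for Itga7, Zfp36l1, Scd2, Ahdc1, Ssbp3 and 1190002N15Rik at day 1, and for Pmepa1, Qk, Bhlhe40, the Myl12b, Myl12a and Myom1 domain, Cavin1 and Itga7 in myotubes. Pmepa1, an inhibitor of TGF-beta signalling, measured 7958 bp at day 0, 8313 bp at day 1, 16900 bp in the myotubes and 8108 bp in the reserve cells. At day 0 a second broad domain without a start lay 245 bp from it. Qk, the RNA-binding protein quaking, which controls muscle splicing, measured 7478, 7747, 13137 and 7174 bp. Bhlhe40, a bHLH repressor, measured 6318, 6127, 10393 and 7964 bp, and Cavin1, a coat protein of caveolae, 6108, 5882, 9496 and 4108 bp. For Qk, Bhlhe40 and Cavin1 too, the myotube peak was the longest of the 4. In reserve cells the highest ratios included these: Scd2, a fatty acid desaturase, measured 6710, 8167, 9399 and 8582 bp, Zfp36l1, an RNA decay factor, 6262, 7688, 7354 and 7423 bp, Ski, a SMAD corepressor, 6049, 6507, 6073 and 6808 bp, and Brinp3 12560, 13105, 9557 and 13413 bp.

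Within domains, later cover was unevenly placed. In the 285 domains with 1 protein-coding start, the stretch from the start to 2 kb downstream was covered 99.4% at day 1, 97.4% in the myotubes and 98.2% in the reserve cells. Beyond 2 kb downstream the cover was 88.6%, 75.2% and 71.8%, and upstream of the start 87.6%, 82.3% and 76.3%. Domains cut into 200-bp windows gave a like contrast by sequence. Windows rich in CpG (GC of 50% or more and observed over expected CpG of 0.6 or more, 3384 windows, 18.6%) were covered 99.3%, 98.6% and 98.4%, and the other 14824 windows 89.0%, 79.3% and 75.5%. Position and CpG content go together in these regions and their parts were not separated.

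Per base, broad domains were poorer in CpG than peaks of 3000 bp to under 6000 bp. The median was 2.95 CpG per 100 bp against 3.60, with 2.78 in shorter peaks, while GC content was 51.0%, 51.3% and 51.0%. CpG-rich windows made up a median of 17.9% of a domain and 26.3% of a peak of 3000 bp to under 6000 bp, which in bases was 1229 and 1013. The 37 domains under 50% in myotubes had a median of 1.97 CpG per 100 bp and 9.38% of CpG-rich windows, and the other 435 had 3.05 and 18.8%. Across the 472 domains of these single libraries, CpG density and later cover went weakly together (Spearman's rho 0.171 at day 1, 0.195 in the myotubes and 0.235 in the reserve cells, a description over regions that share their libraries).

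As motifs, CAGCTG, an E-box that MyoD binds, and TGANTCA, which takes in the AP-1 site, were counted on both strands (both read alike on either strand). In the 250 bases upstream of the start, 10.7% of the 484 protein-coding starts of the domains held CAGCTG and 5.99% held TGANTCA. Of starts under day 0 peaks of 3000 bp to under 6000 bp, 10.7% and 3.16% did. Under shorter peaks the shares were 11.2% and 3.97%, and without a day 0 peak 13.3% and 8.42%. Over all 21755 protein-coding starts they were 12.1% and 6.01%. TGANTCA was thus more frequent at domain starts than at the other marked starts, a difference that was not tested. Over whole domains, CAGCTG occurred 5.53 times per 10 kb and TGANTCA 3.06 times, beside 5.22 and 2.56 times in peaks of 3000 bp to under 6000 bp and 6.08 and 3.21 times in shorter peaks. Over whole regions, neither motif was more frequent per base in broad domains than in the shortest peaks.

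MBD2 overlapped many domains at day 0 and few later. At least 1 MBD2 peak lay in 280 domains at day 0 (59.3%, interval 54.7 to 63.8%), in 29 with the day 1 list (6.14%), in 18 with the myotube list (3.81%) and in 7 with the reserve cell list (1.48%). Over all day 0 H3K4me3 peaks the shares were 25.8%, 1.45%, 0.817% and 0.276%. The MBD2 lists themselves held 14941 peaks at day 0, 452 at day 1, 287 for myotubes and fewer still for reserve cells, so the order of the shares was also the order of the lists. With each list cut to as many of its strongest peaks as the shortest list held, 1.06%, 1.27%, 1.06% and 1.48% of domains held one. Long regions can hold more peaks, and per 100 kb domains held 11.5 MBD2 peaks, peaks of 3000 bp to under 6000 bp 8.74 and shorter peaks 17.1.

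Neat1 carried most MBD2 at day 0, with 6 peaks over 4131 bp, followed by Plec (3926 bp), Gm26887/Gm37352 (3209 bp), Map7d1/Trappc3 (2983 bp), Id2 (2892 bp in 5 peaks), Tlcd2 (2834 bp), Tnrc18 (2437 bp) and the chromosome 6 domain without a start (2408 bp). Of 425 MBD2 peaks in domains, 156 (36.7%) had their summit within 500 bp of an annotated transcript start and 138 (32.5%) lay over 2 kb from any. Within 1000 bp of a domain edge lay 32.0% of the summits, beside 25.6% of the bases. CpG-rich windows had 8.60% of their bases under day 0 MBD2 peaks and other windows 5.35%.

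Exactly 5 domains had MBD2 in all 4 libraries: Cbx5/Hnrnpa1, Sin3a, Srgap2/Fam72a, Cdca2/Kctd9 and the domain without a start at chr6:51168308-51174440. The same count is not given here for other day 0 peaks, so it cannot be called particular to the domains. MBD2 in the reserve cell list alone lay in 7 domains (1.48%). It also lay in 26 peaks of 3000 bp to under 6000 bp (0.615%) and 20 shorter peaks (0.138%). Sin3a is the scaffold of a histone deacetylase complex, and Cbx5 encodes the heterochromatin protein HP1 alpha. The authors' fold enrichment of the strongest MBD2 peak in Srgap2/Fam72a was 116 at day 0, 56.7 at day 1, 6.95 in the myotubes and 18.5 in the reserve cells. In Sin3a it was 75.7, 27.2, 4.17 and 8.22, in Cdca2/Kctd9 69.8, 26.4, 4.47 and 8.73, in the chromosome 6 domain 56.7, 22.5, 4.03 and 9.25, and in Cbx5/Hnrnpa1 24.4, 8.36, 6.14 and 6.16. Folds are each library's own, so their order within a list is meaningful and their difference between lists is not a measured change. In the Srgap2 window printed above, the day 0 MBD2 summit lies inside the 250 bases (base 131527591 of chromosome 1).

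Median later H3K4me3 cover was alike in domains with and without MBD2 at day 0. The median cover was 93.2% with MBD2 (280 domains) and 92.3% without (192) at day 1, 88.5% and 87.9% in myotubes, and 81.5% and 81.0% in reserve cells. Under 50% at day 1 were 0 with MBD2 and 3 without (1.56%). Under 50% in myotubes were 23 with MBD2 (8.21%) and 14 without (7.29%), and in reserve cells 16 (5.71%) and 11 (5.73%).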

How the data were processed

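CUT&RUN peaks of 8 libraries (H3K4me3 and MBD2 in 4 states) were used, and the 4 IgG libraries were not analysed here. Per the submitters' processing notes, the authors trimmed reads with Trim Galore, mapped them to mm10 with Bowtie2, filtered them with SAMtools and called peaks with MACS2, 1 list per library. For program versions, MACS2 settings, read numbers and the role of IgG, nothing is stated in the sources. The design text speaks of later filtering by the authors' own programs, and it is unknown whether these lists had passed it. The deposited lists give, per the file headers, each peak's start, end, length and summit, its pileup (a signal, the fragment coverage at the summit), its fold enrichment (a ratio to local background) and −log10 p and q values. The header of the −log10 columns is damaged, and the 9th column of the authors' lists was taken as −log10 q because of its place and its minimum just above −log10 of 0.05. Peak scores were used only to describe or rank peaks within their own list.

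Peaks on chromosomes 1 to 19 and X were kept, which left out 22 to 30 peaks per H3K4me3 list and 15 to 27 per MBD2 list. Genes and transcripts came from GENCODE M21 basic annotation of mm10, and a gene's start is its 5′ end. Sequence came from the RefSeq copy of GRCm38.p6, the assembly of mm10, and the coordinates of 8 of 8 lists lay inside its chromosomes. Overlap meant at least 1 bp, cover the share of a domain's bases under any peak of a later list, and a CpG-rich window 200 bp with GC of at least 50% and observed over expected CpG of at least 0.6. A domain's length in a later list is that of the longest peak overlapping it, which can fall by splitting alone. Exact binomial intervals (95%) and all counts were made in Python 3.11.15 with pandas 2.3.3, NumPy 2.4.6, SciPy 1.17.1 and pysam 0.24.0, and the overlap routines were tested on simulated intervals.

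The domains and gene lists were chosen with earlier results of these data known. Named were the 10 longest domains, per later list the 6 with a protein-coding start and least cover and the 6 lengthened most, the 8 with most MBD2 bases and those with MBD2 in all 4 libraries, up to 6 genes per list (longest first), the 5 longest without a gene 5′ end, the 3 nearest the limit on either side, and a fixed set of muscle and control genes; other domains were chosen after their values were seen, as were the small families. Some domains and sequences that this rule names are not reported here. In total 15 alternatives were tried.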

Additional observations from a re-analysis of the deposited data

How the results depend on the processing

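No paired analysis was possible because each group had 1 library per antibody, and leaving out a replicate was not possible for the same reason. Results that moved beyond their counting interval are given in the order day 1, myotubes, reserve cells, with the number of domains for some settings. With a length limit of 5000 bp there were 941 domains, of which 33.7%, 31.8% and 18.4% overlapped a later peak of 6000 bp or more, and 50.2% held MBD2 at day 0. With a limit of 8000 bp there were 135 domains, the later peak was broad in 85.2%, 71.1% and 63.0%, median cover at day 1 was 95.2%, MBD2 lay in 77.0% at day 0 and the median was 2.81 CpG per 100 bp. Joining day 0 peaks closer than 1 kb before the limit gave 579 domains and a median cover of 89.3%, 84.7% and 75.7%. Later broad peaks then overlapped 52.0%, 44.2% and 28.8%, and cover was under 50% in 11.2% in the myotubes and 10.5% in the reserve cells. When only the upper 50% of each H3K4me3 list by −log10 q was kept, 4.79% were under 50% covered at day 1, 10.5% in the myotubes and 16.3% in the reserve cells, where median cover was 77.5%. Under 80% covered were 14.8%, 34.3% and 47.2%, so the order of myotubes and reserve cells in low cover turned under both of these settings. Joining later peaks closer than 1 kb gave broad peaks in 71.6%, 61.2% and 44.3%, and ranking by length within each list gave 74.4%, 45.8% and 63.6%. Any transcript start lay in 95.8% of domains and a protein-coding gene start in 78.6%. MBD2 peaks of fold 5 or more lay in 48.3% at day 0 and 1.91% in myotubes, and with MBD2 lists of equal size the shares were 1.06% at day 0, 1.27% at day 1 and 1.06% in myotubes. Within 1 kb of the summit the median was 3.55 CpG per 100 bp. The causes were not tested. Equal numbers of H3K4me3 peaks per list (15910), a fold of at least 5 in every H3K4me3 list, and asking for the MBD2 summit inside the domain moved no result of these. In all, 62 of the alternative values were counted as unmoved and 40 as moved. The number of domains has no counting interval, and the 579 domains after joining, against 472, were counted as unmoved. The depth of the libraries, which limits how far a weak mark can be followed from a summit, is unknown.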

Other observations

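Several domains lay in close pairs at day 0. Broad domains without a start lay 402 bp from that of Nfix, 742 bp from that of Zfhx3 and 245 bp from that of Pmepa1, and the domains of Gm10748 and Zfhx4, a large zinc finger homeobox gene, were 271 bp apart. The forkhead genes Foxc2 and Foxl1 had separate domains 1466 bp apart, and the domain of Itga7 was 7976 bp from that of Rdh5/Bloc1s1. Plec held 2 domains 18323 bp apart.

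Xist, the noncoding RNA of X inactivation, had a broad domain of 7185 bp at day 0, with 7323 bp at day 1, 5397 bp in the myotubes and 5001 bp in the reserve cells. Kdm6b, an H3K27 demethylase, measured 13166, 7426, 13016 and 7454 bp in that order, with 4 MBD2 peaks at day 0. Its domain was covered 91.0% at day 1 and 90.4% in the reserve cells, so the short lengths there came with split peaks. Nr4a2, an orphan nuclear receptor, measured 11086, 4986, 4469 and 4172 bp. Pde4d, a cyclic AMP phosphodiesterase, measured 10228, 4717, 3335 and 3908 bp. Runx1, a Runt-domain factor, measured 7996, 7731, 7863 and 8013 bp. These domains were chosen after their values were seen.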
